A study of Mus musculus with 9 samples.

Results

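The insulin-like growth factor (IGF) axis was examined in mouse liver through 10 genes, which encode the hormone IGF1, its receptor, the IGF2 receptor, the acid-labile subunit and the IGF binding proteins 2 to 7. The genes were found by matching the RefSeq accession of each non-control probe on the array, without its version, to their symbols. This gave 14 probes of the 55681 on the array, and 10 genes of the 20972 that could be named. *Igf1* had 4 probes, *Igfbp2* had 2, and each other gene had 1. All 14 probes passed the filter on dim probes (below), and 13 of them were well above background on all 9 arrays, the exception being the probe of *Igfbp6*.

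Liver RNA was taken from male mice on a C57BL/6J background at 20 weeks of age. STAM mice model diabetes with fatty liver disease and liver tumours. They receive a low dose of streptozotocin, a toxin of the insulin-secreting beta cells, as newborns, and a high-fat diet from weaning. STAM-NON mice received no further treatment, STAM-INS mice were injected with the insulin analogue glargine until they were killed, and Normal mice received neither streptozotocin nor the high-fat diet. Each group had 3 mice with 1 array each. Both STAM groups received streptozotocin as well as the high-fat diet, so the parts of each in a difference from Normal cannot be told apart. The labels do not say whether tumour or non-tumour liver was sampled.

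IGF1 is a peptide hormone related to insulin, and the liver is the main source of what circulates. Growth hormone drives its transcription in hepatocytes through the growth hormone receptor, the kinase Jak2 and the transcription factor Stat5b. In blood most IGF1 travels in a complex with IGF binding protein 3 and the acid-labile subunit, which lengthens its life, while the other binding proteins hold it in smaller complexes or in tissue. Adult hepatocytes carry little of the IGF1 receptor, whereas stellate, endothelial and immune cells of the liver carry more.

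Values are given as centred log2 signal, which is log2 of the background-subtracted signal less the 75th percentile of its own array. A level above 0 is thus brighter than 75% of the spots. Probes differ in how well they hybridise, so no level is set against that of another probe. Differences were tested with limma over all 26278 probes that passed the filter, and a probe was called when its Benjamini-Hochberg adjusted p was under 0.05. Between 46.2% and 65.0% of the spots on an array were well above background. Hepatocyte markers had a mean level of 7.44 to 7.78 in STAM-NON, 7.59 to 7.77 in STAM-INS and 7.87 to 7.99 in Normal arrays. All Normal arrays lay on slide 1 and all STAM arrays on slide 2, each slide scanned at its own time, so slide, scan and the difference from Normal cannot be told apart. STAM-INS and STAM-NON were compared within slide 2, but row 1 of that slide held the 3 STAM-NON arrays and STAM-INS replicate 1, and row 2 held STAM-INS replicates 2 and 3, so row and treatment are largely confounded. Values with the row as a block are given for some of the differences that they move, not for all. The labels do not say whether mice shared a litter or cage, and p-values measure the spread between these mice only.

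Untreated STAM livers differed from Normal livers in 4 of the 10 genes. *Igf1*, *Igfals* and *Igfbp4* were lower and *Igf1r* was higher in STAM-NON. Over all probes, 16.1% were called in this comparison, of which 6.3% of probes were higher and 9.76% lower, so the members' counts stand against a broad background of change. Insulin-treated STAM livers differed from Normal livers in 3 of the genes, *Igf1*, *Igfals* and *Igfbp4*, all lower, against 13.9% of all probes called, 5.16% higher and 8.72% lower. Between STAM-INS and STAM-NON none of the 10 genes was called by limma, against 0.0913% of all probes called, 0.0114% higher and 0.0799% lower. At an unadjusted p under 0.05 that comparison held 4 of the genes, all with lower values in STAM-INS: *Igf1r*, *Igf2r*, *Igfbp5* and *Igfbp7*. At the same unadjusted threshold it held 2308 of the 26278 tested probes, in either direction, which is the background for these 4 genes. The 3 comparisons share arrays, so their values stand side by side and are not independent. How many of all probes separate groups without overlap was not counted. Separations given below therefore have no background share beside them.

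The median difference of the 10 genes was 0.02 for STAM-NON against Normal, -0.44 for STAM-INS against STAM-NON and -0.53 for STAM-INS against Normal. The medians over all tested probes were -0.13, 0.03 and -0.09. For STAM-NON against Normal the median over all probes lay between -0.29 and 0.04 when arrays were centred in other ways. The share of called probes that were higher was 39.2% with the centring used here and 68.7% when the percentile was taken over the probes detected on all arrays. For STAM-INS against Normal these shares were 37.2% and 58.4%. Relative to the median of all probes, which array-wise centring does not move, STAM-NON differed from Normal by -1.29 for *Igfals*, -0.50 for *Igf1*, -0.29 for *Igfbp4* and 0.96 for *Igf1r*.

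**Figure D1:**
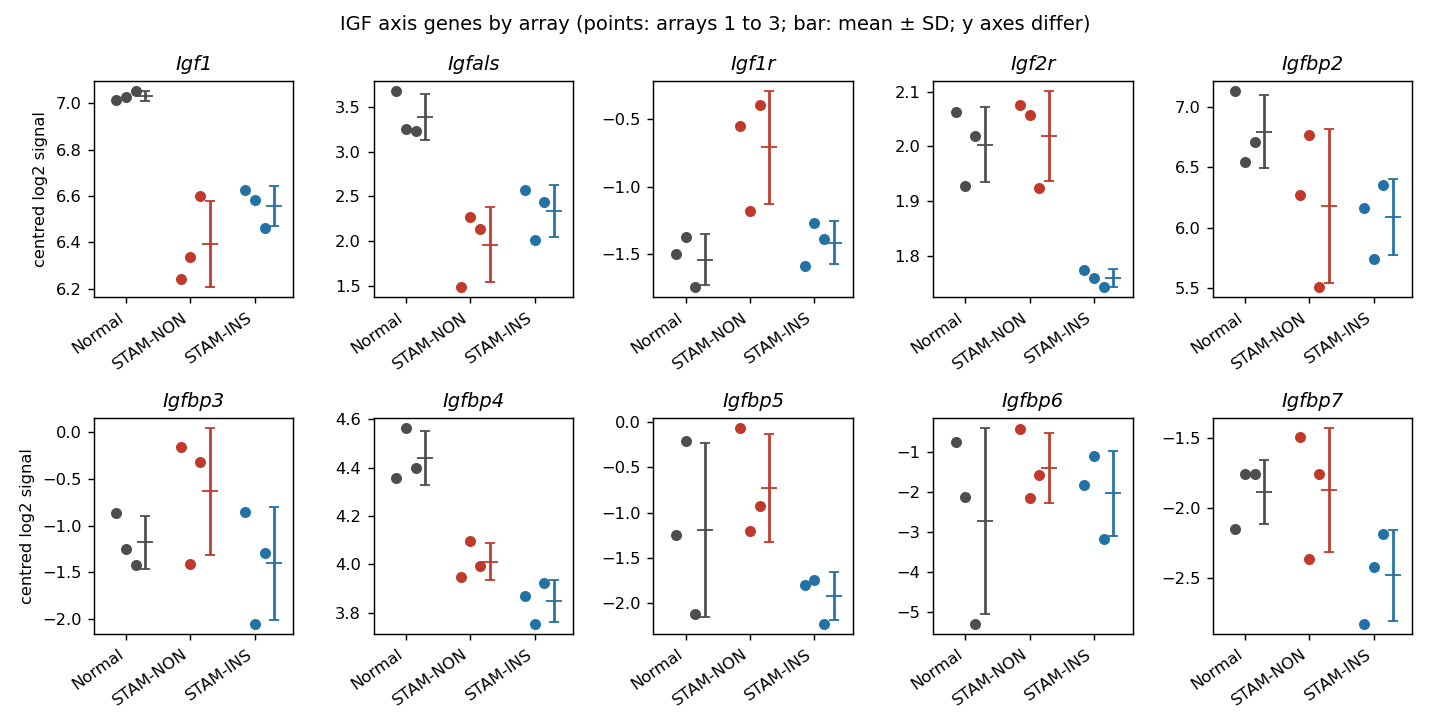
Centred log2 signal of the 10 genes by array in Normal, STAM-NON and STAM-INS livers. Points are single arrays, bars give the mean and SD of the 3 arrays of a group, and each panel has its own y axis. The 3 Normal arrays lie above all 6 STAM arrays for Igf1, Igfals and Igfbp4, and the 3 STAM-INS arrays lie below all others for Igf2r. Such separations were not counted over all probes.

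The transcript signal of *Igf1* was lower in both STAM groups, and the hormone itself was not measured. The brightest *Igf1* probe read 6.24, 6.34 and 6.60 in the STAM-NON arrays, 6.62, 6.58 and 6.46 in the STAM-INS arrays, and 7.01, 7.03 and 7.05 in the Normal arrays. Every STAM array lay below every Normal array, and the Normal arrays lay within a narrow range. *Igf1* was 1.56-fold lower in STAM-NON than in Normal (difference -0.64 ± 0.12 (SE), adjusted p = 0.0165) and 1.39-fold lower in STAM-INS than in Normal (-0.47 ± 0.12, adjusted p = 0.0372). STAM-INS exceeded STAM-NON by 0.16, with a 95% confidence interval of -0.11 to 0.44, and this difference was not called (adjusted p = 0.74). It was 0.03 with spike-in centring, 0.09 without STAM-NON replicate 1 and 0.27 without STAM-NON replicate 3.

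The other 3 probes of *Igf1* carry the same accession. The next 2 probes by brightness were called in both comparisons with Normal, with differences of -0.64 and -0.76 in STAM-NON and of -0.48 and -0.73 in STAM-INS. The dimmest probe differed by -0.44 in STAM-NON (adjusted p = 0.0879) and by -0.52 in STAM-INS (adjusted p = 0.0611) and was not called. All 4 probes had every STAM array below every Normal array. Between STAM-INS and STAM-NON the 4 probes differed by 0.16, 0.16, 0.02 and -0.08, so they did not share a direction there.

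**Figure D2:**
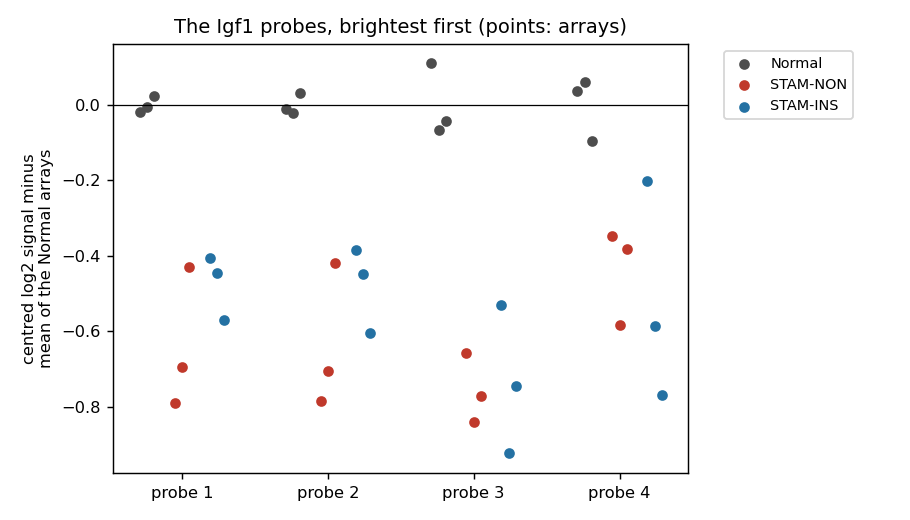
The 4 probes of Igf1 by array, as centred log2 signal minus the mean of the Normal arrays for that probe. Points are single arrays, and the STAM-NON and STAM-INS points lie below the Normal points for each probe and overlap each other.

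The call of *Igf1* against Normal did not hold everywhere. It passed in 14 of 23 alternative settings for STAM-NON and in 10 of 24 for STAM-INS, with a negative difference in all of them. The STAM-NON call was lost when any 1 Normal array was left out (adjusted p from 0.0533 to 0.0590). The STAM-INS call was lost without any 1 Normal array, without any 1 STAM-INS array and without STAM-NON replicate 2 (adjusted p from 0.0557 to 0.113). Quantile normalisation reduced the difference to -0.39 in STAM-NON and -0.27 in STAM-INS, and neither passed.

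*Igfals* had the largest difference among the 4 called genes. It encodes the acid-labile subunit, a liver protein that completes the circulating IGF1 complex. It read 1.49, 2.27 and 2.13 in STAM-NON, 2.57, 2.01 and 2.44 in STAM-INS, and 3.68, 3.25 and 3.23 in Normal. The STAM and Normal arrays did not overlap, while the STAM groups overlapped each other. *Igfals* was 2.68-fold lower in STAM-NON than in Normal (-1.42 ± 0.24, adjusted p = 0.0133) and 2.06-fold lower in STAM-INS than in Normal (-1.04 ± 0.24, adjusted p = 0.0288). STAM-INS exceeded STAM-NON by 0.38, with a 95% confidence interval of -0.18 to 0.93 (adjusted p = 0.698). This became 0.61 with the slide row as a block, 0.24 with spike-in centring and 0.14 without STAM-NON replicate 1.

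The STAM-NON call of *Igfals* passed in 20 of 23 settings, including each setting that left out 1 array. It was lost when the row of the slide was taken as a block (-1.77, adjusted p = 0.179), a fit that links the groups only through STAM-INS, since row 1 held no Normal array and row 2 no STAM-NON array. The other losses were without a filter on dim probes and with the methods' test after adjustment. The STAM-INS call passed in 16 of 24 settings. It was lost without any 1 Normal array and without STAM-INS replicate 2 or 3 (adjusted p from 0.0639 to 0.104).

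The 3 genes that were lower in both STAM groups are shown with the 250 bases before a transcription start, from RefSeq on GRCm38.p6, written 5′ to 3′ on the strand of the gene. They are printed because these genes were lower together, and because Stat5 binds motifs of the form TTCNNNGAA. Capitals mark a match to that motif. The *Igfals* window lies at chr17:24877594-24877843 on the plus strand, that of *Igf1* at chr10:87860861-87861110 on the plus strand and that of *Igfbp4* at chr11:99040994-99041243 on the plus strand.
Igfals: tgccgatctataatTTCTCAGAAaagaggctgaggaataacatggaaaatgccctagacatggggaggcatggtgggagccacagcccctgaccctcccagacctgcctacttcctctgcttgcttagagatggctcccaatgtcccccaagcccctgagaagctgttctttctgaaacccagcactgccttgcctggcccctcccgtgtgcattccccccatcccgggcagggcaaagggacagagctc
Igf1: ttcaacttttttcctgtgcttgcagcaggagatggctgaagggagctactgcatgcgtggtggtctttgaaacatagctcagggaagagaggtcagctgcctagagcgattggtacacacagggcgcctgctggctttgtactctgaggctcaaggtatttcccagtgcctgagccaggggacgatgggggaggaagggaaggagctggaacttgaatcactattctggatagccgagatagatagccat
Igfbp4: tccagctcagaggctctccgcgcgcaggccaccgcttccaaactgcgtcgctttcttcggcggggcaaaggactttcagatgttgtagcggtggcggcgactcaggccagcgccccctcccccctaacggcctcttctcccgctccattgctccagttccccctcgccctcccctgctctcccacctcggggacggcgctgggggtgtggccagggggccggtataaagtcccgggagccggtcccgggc

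RefSeq gave 13 such windows for the 10 genes, 3 of them for *Igfals* and 2 for *Igfbp2*. TTCNNNGAA, read on both strands, was found in 2 of the 13, both of *Igfals*, and in 7.02% of the 32851 windows of all genes. In the printed window the match TTCTCAGAA begins 236 bases before the start. In the window at chr17:24877981-24878230, which precedes a later start of *Igfals*, the match TTCCTAGAA begins 58 bases before that start. That window also held TGTTTAC, a motif of Foxo factors, 242 bases before the start, which was found in 3.17% of all windows and in no other of the 13. No match or mismatch in these windows was tied to the signal of a gene, and windows of 250 bases hold only part of the sequence that may regulate it.

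Among the receptors, *Igf1r* was higher in STAM-NON livers. It encodes the tyrosine kinase receptor through which IGF1 signals. It read -0.55, -1.18 and -0.40 in STAM-NON, -1.58, -1.27 and -1.39 in STAM-INS, and -1.50, -1.37 and -1.74 in Normal. STAM-NON replicates 1 and 3 stood well above all other arrays, replicate 2 lay just above the highest STAM-INS array, and STAM-INS overlapped Normal. *Igf1r* was 1.78-fold higher in STAM-NON than in Normal (0.83 ± 0.21, adjusted p = 0.0357). STAM-INS was below STAM-NON by 1.63-fold with no overlap (-0.71 ± 0.21, unadjusted p = 0.0097), but this was not called over all probes (adjusted p = 0.473). STAM-INS differed from Normal by 0.12, with a 95% confidence interval of -0.36 to 0.61, and with arrays centred on their medians by -0.05.

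The call of *Igf1r* passed in 10 of 23 settings, all with a positive difference. It was lost without any 1 Normal array, without STAM-NON replicate 1 or 3 and without STAM-INS replicate 2 or 3 (adjusted p from 0.0553 to 0.110). Background correction with normexp reduced the difference to 0.47, which still passed, and that between STAM-INS and STAM-NON to -0.42. The same STAM-NON replicates 1 and 3 had 59.3% and 63.1% of spots well above background, against 47.8% in replicate 2. STAM-INS replicate 1, with 65.0%, had the lowest *Igf1r* value of its group. The part of these shares in the *Igf1r* values was not tested.

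*Igf2r* encodes the cation-independent mannose 6-phosphate receptor, which binds IGF2 and takes it into the cell for breakdown. Its probe is spotted 10 times on each array. It read 2.08, 2.06 and 1.92 in STAM-NON, 1.77, 1.76 and 1.74 in STAM-INS, and 2.06, 1.93 and 2.02 in Normal. The STAM-INS arrays lay below all others by a small margin. STAM-INS was 1.20-fold below STAM-NON (-0.26 ± 0.10, adjusted p = 0.524) and 1.18-fold below Normal (-0.24 ± 0.10, adjusted p = 0.127), and neither was called. STAM-NON differed from Normal by 0.02, with a 95% confidence interval of -0.21 to 0.24.

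**Figure D3:**
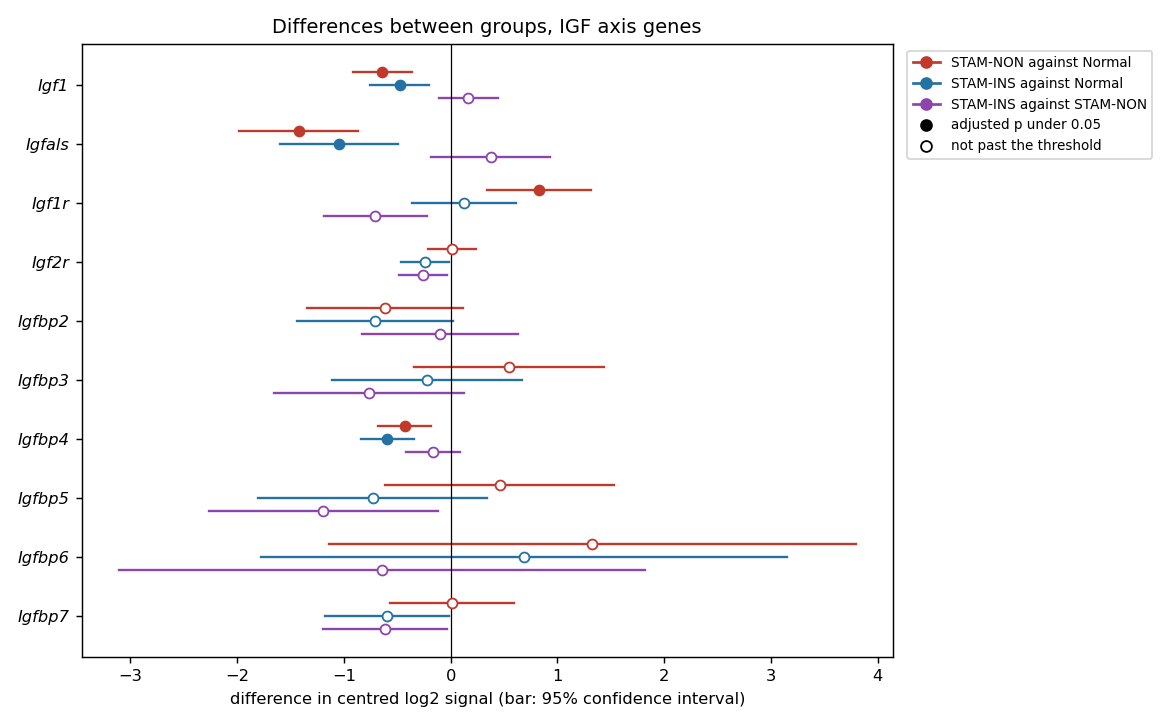
Differences between groups in centred log2 signal for the 10 genes, with 95% confidence intervals from limma. Filled points passed an adjusted p of 0.05. The filled points are Igf1, Igfals and Igfbp4 below 0 in both comparisons with Normal and Igf1r above 0 in STAM-NON against Normal, and every point for STAM-INS against STAM-NON is open.

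Of the 6 binding protein genes, only *Igfbp4* was called, in both comparisons with Normal. *Igfbp4* encodes a liver-derived binding protein that holds IGF1 until the protease pappalysin cuts it. It read 3.95, 4.10 and 3.99 in STAM-NON, 3.87, 3.75 and 3.92 in STAM-INS, and 4.36, 4.57 and 4.40 in Normal. The 3 groups did not overlap, with Normal highest and STAM-INS lowest. *Igfbp4* was 1.35-fold lower in STAM-NON (-0.43 ± 0.11, adjusted p = 0.0353) and 1.51-fold lower in STAM-INS (-0.59 ± 0.11, adjusted p = 0.0137) than in Normal. STAM-INS was below STAM-NON by 0.16 ± 0.11 on the log2 scale, which was not called (adjusted p = 0.709).

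The 2 calls of *Igfbp4* differed in how they held. That of STAM-INS passed in 21 of 24 settings. It was lost without Normal replicate 2 (adjusted p = 0.0501), without STAM-INS replicate 2 (adjusted p = 0.0619) and without a filter on dim probes (adjusted p = 0.107). That of STAM-NON passed in 6 of 23 settings and was lost when any 1 array other than STAM-NON replicate 2 was left out (adjusted p from 0.0528 to 0.104). Its difference shrank to -0.21 with quantile normalisation, to -0.25 with the percentile over probes detected on all arrays and to -0.28 with spike-in centring, none of which passed.

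*Igfbp2*, which encodes a binding protein made by hepatocytes, had values in the same direction as *Igf1* but did not pass. Its brighter probe read 6.27, 6.77 and 5.51 in STAM-NON, 6.17, 5.74 and 6.35 in STAM-INS, and 7.13, 6.55 and 6.71 in Normal. STAM-NON spread widely and overlapped Normal, while STAM-INS lay below Normal. The difference from Normal was -0.61 ± 0.32 in STAM-NON (adjusted p = 0.202) and -0.71 ± 0.32 in STAM-INS (adjusted p = 0.164). The other probe of *Igfbp2* gave -0.56 and -0.68. The STAM-NON difference was -0.27 without STAM-NON replicate 3, its lowest array, -0.91 without replicate 2 and -0.34 with quantile normalisation.

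*Igfbp3*, *Igfbp5* and *Igfbp7* encode binding proteins that cells other than hepatocytes produce in liver. *Igfbp3* read -0.16, -1.41 and -0.32 in STAM-NON, -0.86, -2.05 and -1.30 in STAM-INS, and -0.87, -1.25 and -1.42 in Normal. STAM-NON replicates 1 and 3 stood above every other array, as for *Igf1r*, and replicate 2 fell among the Normal arrays. STAM-NON differed from Normal by 0.54 ± 0.39 (adjusted p = 0.339) and STAM-INS from STAM-NON by -0.77 ± 0.39 (adjusted p = 0.615). The latter was -0.22 with the slide row as a block, -1.16 without STAM-NON replicate 2 and -0.44 without STAM-INS replicate 2. The former was -0.27 with the slide row as a block, 0.31 without STAM-NON replicate 1 and 0.93 without STAM-NON replicate 2.

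*Igfbp5* read -0.07, -1.20 and -0.92 in STAM-NON, -1.80, -1.74 and -2.23 in STAM-INS, and -1.24, -0.21 and -2.12 in Normal. The STAM groups did not overlap, and Normal spanned most of the range of both. STAM-INS was 2.28-fold below STAM-NON, the largest of the differences between the STAM groups among the 10 genes, but with a wide interval of -2.26 to -0.12 on the log2 scale (unadjusted p = 0.0332, adjusted p = 0.543). STAM-NON differed from Normal by 0.46 ± 0.47 and STAM-INS from Normal by -0.73 ± 0.47, and neither was called. Normexp background correction reduced the difference between the STAM groups to -0.68. Without Normal replicate 2 the differences from Normal were 0.95 in STAM-NON and -0.24 in STAM-INS, and without Normal replicate 3 they were -0.0038 and -1.19.

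*Igfbp7* read -1.49, -2.36 and -1.76 in STAM-NON, -2.83, -2.43 and -2.19 in STAM-INS, and -2.15, -1.76 and -1.75 in Normal. STAM-INS lay below Normal without overlap and overlapped STAM-NON through STAM-NON replicate 2. STAM-INS differed from STAM-NON by -0.61 ± 0.25 (adjusted p = 0.552) and from Normal by -0.60 ± 0.25 (adjusted p = 0.144). With normexp background correction these were -0.36 and -0.33, and with the slide row as a block the former was -0.96 (adjusted p = 0.956).

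*Igfbp6*, which encodes a binding protein with preference for IGF2, spread most within groups. It read -0.45, -2.16 and -1.59 in STAM-NON, -1.83, -1.11 and -3.19 in STAM-INS, and -0.76, -2.13 and -5.30 in Normal. The lowest Normal array was not well above background, and the groups overlapped. Its intervals were the widest of the 10 genes, from -1.14 to 3.79 for STAM-NON against Normal, so a fall or a rise of more than 2-fold lies within the interval. That difference of 1.33 was 0.05 without Normal replicate 3.

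Levels of cell type markers stand beside those of the members. In whole liver, fewer cells of a type and less RNA per cell cannot be told apart. Beside the lower *Igf1*, *Igfals* and *Igfbp4*, the 8 hepatocyte markers had a median difference of -0.33 for STAM-NON against Normal, with 7 of 8 below 0, and of -0.21 for STAM-INS against Normal, with 5 of 8 below 0. *Cps1*, a urea cycle enzyme, was called lower in STAM-NON (-0.67) and in STAM-INS (-0.67), and *Tdo2*, which breaks down tryptophan, was called lower in STAM-INS (-0.93). The *Igfbp4* difference from Normal was -0.43 in STAM-NON and -0.59 in STAM-INS. Single hepatocyte markers ranged in STAM-NON from -0.72 for *Tdo2* to 0.18 for *Tat*. The part of hepatocyte content in the *Igfbp4* differences was not tested.

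Beside the higher *Igf1r* in STAM-NON stand markers of the other liver cells. For stellate cells and fibroblasts none of 12 markers was called, and the median difference was 0.55 for STAM-NON against Normal, with 10 of 12 above 0, and -0.52 for STAM-INS against STAM-NON, with 11 of 12 below 0. Their mean level was 0.60 to 1.21 in STAM-NON, 0.30 to 0.83 in STAM-INS and 0.01 to 0.47 in Normal. For endothelial cells the median difference was 0.08 for STAM-NON against Normal, with 6 of 9 markers above 0 and *Lyve1* called higher (3.01 ± 0.66, adjusted p = 0.0240). For STAM-INS against STAM-NON it was -0.32, with 8 of 9 below 0. Endothelial levels were 1.43 to 2.31 in STAM-NON, 0.93 to 1.92 in STAM-INS and 1.46 to 1.59 in Normal.

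Macrophage markers were above 0 in 7 of 7 tested for STAM-NON against Normal, with a median of 0.97 and 2 called higher, *Clec4f* (0.97) and *Cd5l* (1.33). The same 2 were called higher in STAM-INS against Normal. Cholangiocyte markers were above 0 in 5 of 5 tested, with a median of 0.96 and 3 called higher, *Krt7* (1.55), *Sox9* (0.96) and *Spp1* (adjusted p = 0.0422), and in STAM-INS against Normal *Sox9* was called higher. Of all tested probes, 6.3% were called higher in STAM-NON against Normal and 5.16% in STAM-INS against Normal. No marker of these lists was called between STAM-INS and STAM-NON. Macrophage levels were 3.83 to 4.68 in STAM-NON, 3.54 to 4.89 in STAM-INS and 2.84 to 3.49 in Normal, and cholangiocyte levels -0.78 to 0.23, -0.77 to -0.42 and -2.03 to -1.07. Lymphocyte markers, of which 3 were tested and none called, had levels of -1.49 to -0.44, -1.47 to -0.83 and -1.82 to -1.17. The part of these cells in the values of *Igf1r* and the binding proteins was not tested.

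Other genes of the axis were taken from a list of 19, of which 11 could be tested. For STAM-NON against Normal 2 were higher and none lower, for STAM-INS against Normal the same counts were found, and for STAM-INS against STAM-NON none was called. Of all tested probes, 6.3% were called higher and 9.76% lower in STAM-NON against Normal. In STAM-INS against Normal these shares were 5.16% and 8.72%. The median differences of the list were 0.60, 0.23 and 0.06, against -0.13, -0.09 and 0.03 over all tested probes. *Igf2bp2*, which encodes an RNA-binding protein that attaches to the *Igf2* transcript, was 1.80 ± 0.40 higher in STAM-NON (adjusted p = 0.0246) and 2.34 ± 0.40 higher in STAM-INS (adjusted p = 0.0104) than in Normal, on the log2 scale, and was well above background on 8 of 9 arrays. *Adamts1*, a secreted metalloprotease, was 1.19 ± 0.14 higher in STAM-NON (adjusted p = 0.00528) and 0.84 ± 0.14 higher in STAM-INS (adjusted p = 0.0105). *Igfbp1*, named here after its values were seen, encodes the binding protein that insulin represses in liver, and it was well above background on all 9 arrays. Its level was 5.09 ± 0.38 in Normal, against 7.25 ± 0.81 in STAM-NON and 7.31 ± 1.62 in STAM-INS (SD, n = 3 each). Its differences from Normal, 2.16 ± 0.74 (SE, adjusted p = 0.0790 in limma) and 2.22 ± 0.74 (adjusted p = 0.0803), were large but did not pass, and that of STAM-NON was the largest of the list. Between the STAM groups the 2 largest differences were 0.54 for *Igf2bp2* and -0.52 for *Stc2*, and neither passed. Another 8 listed genes, among them *Igf2* itself, were not tested because their probes did not pass the filter on dim probes.

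Genes of the growth hormone pathway were read beside *Igf1* and *Igfals*, since that hormone drives both. All 8 listed genes were tested. *Ghr*, the growth hormone receptor, was lower in STAM-NON than in Normal (4.63 ± 0.51 against 5.93 ± 0.12, SD, n = 3 each, difference -1.30 ± 0.24 (SE), adjusted p = 0.0163 in limma). In STAM-INS it was 5.20 ± 0.22, a difference of -0.73 from Normal that did not pass (adjusted p = 0.0786). *Socs3*, an inhibitor of cytokine receptor signalling, was higher in STAM-NON (1.11 ± 0.27, adjusted p = 0.0317) and in STAM-INS (1.62 ± 0.27, adjusted p = 0.00993) than in Normal. None of the 8 was called between STAM-INS and STAM-NON. All 8 differences were above 0 with a median of 0.36, against 54.9% of all tested probes above 0 and a median of 0.03. The 2 largest of the 8 were 0.57 for *Ghr* and 0.56 for *Socs2*, and they did not pass. *Stat5b* was 0.49 ± 0.11 (SE) higher in STAM-INS than in STAM-NON (unadjusted p = 0.0023, adjusted p = 0.329 in limma). It differed from Normal by -0.37 in STAM-NON (adjusted p = 0.0614) and by 0.13 in STAM-INS (adjusted p = 0.463). None of these *Stat5b* differences passed.

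**Figure D4:**
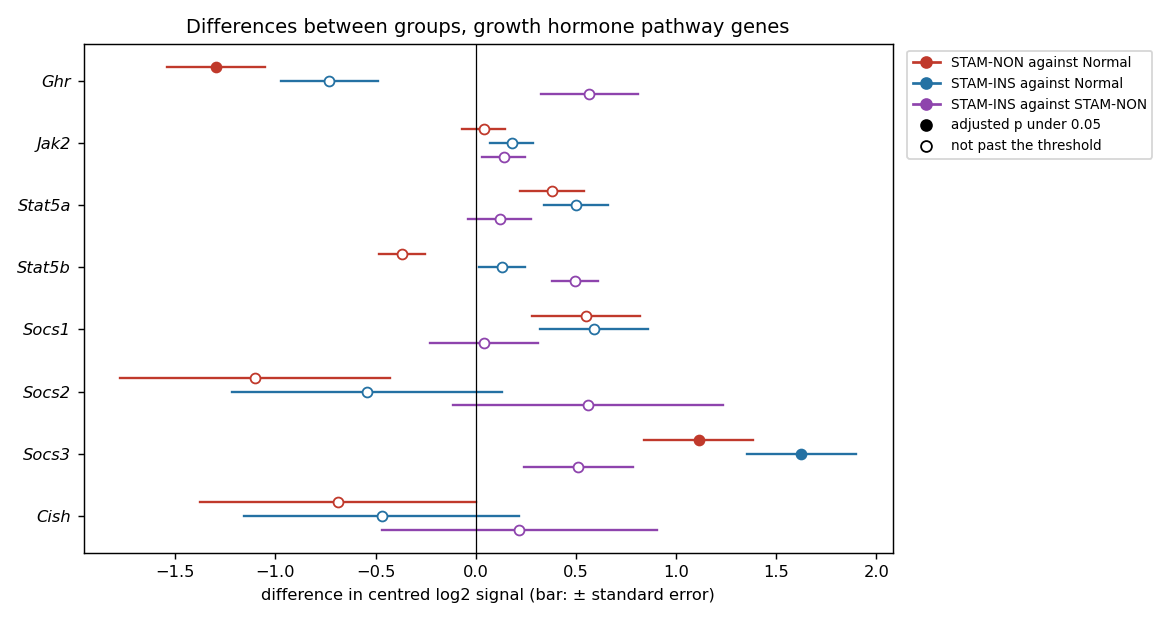
Differences between groups in centred log2 signal for 8 genes of the growth hormone pathway, with standard errors from limma. Filled points passed an adjusted p of 0.05, which were Ghr in STAM-NON against Normal and Socs3 in both comparisons with Normal.

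The genes whose pattern over the 9 arrays was most like that of a member were named by Pearson r among 13376 genes. For *Igf1* these were *Mplkip* (0.989), *Slc35e4* (0.978) and *Rps21* (0.971). For *Igfals* they were *Nt5dc3* (0.986), *Gm10845* (0.983) and *Olfr149* (0.982). For *Igf1r* they were *Tspyl3* (0.973), *Col6a1* (0.968), a collagen gene, and *Peak1* (0.966). The arrays fall into 3 groups on 2 slides, so any gene that differs between the groups shares much of such a pattern, and the values are a description.

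**Figure D5:**
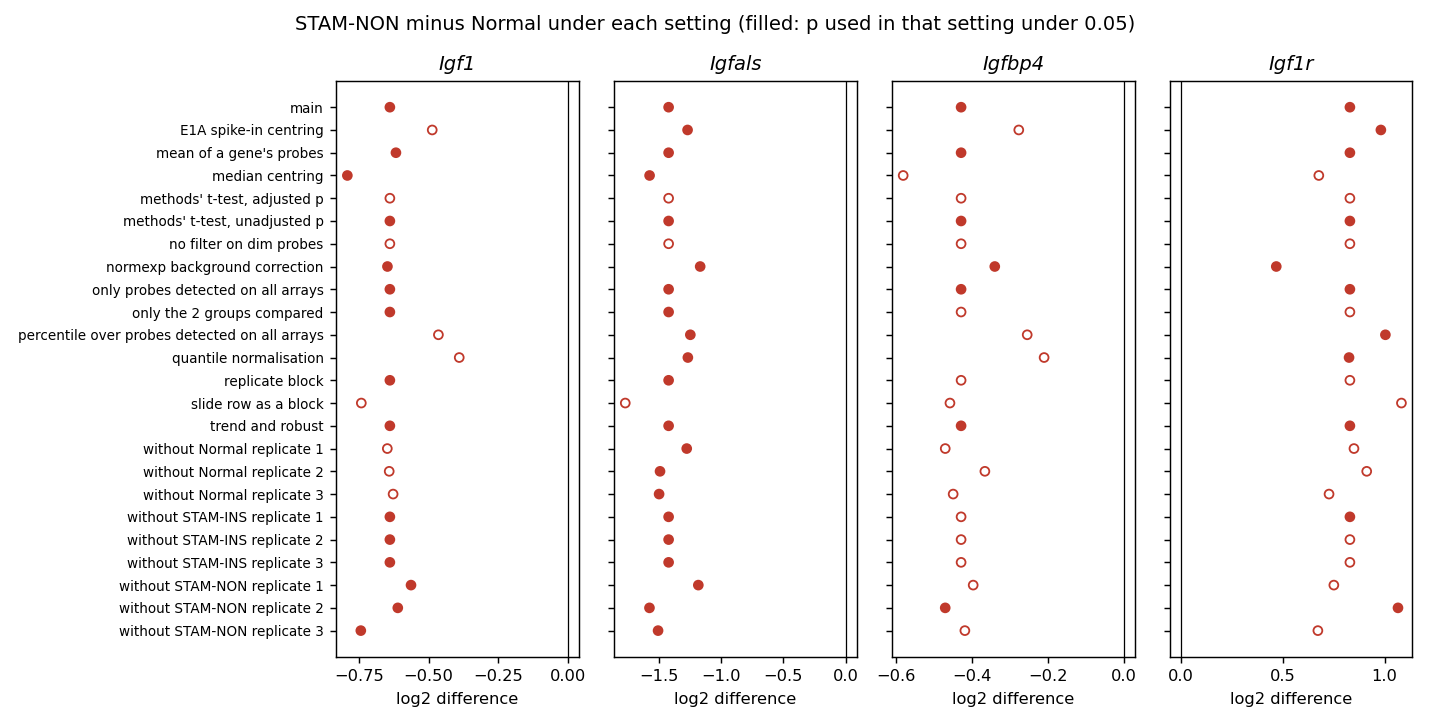
Difference of STAM-NON from Normal in log2 units for the 4 called genes under each setting of the processing, with 1 row per setting. Filled points passed the p threshold of 0.05 used in that setting. Igfals is filled in 20 of the 23 alternatives, Igf1 in 14, Igf1r in 10 and Igfbp4 in 6, and no point crosses 0.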

How the data were processed

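Total liver RNA was labelled with Cy3 and hybridised to 1-colour Agilent mouse arrays, with 9 arrays in 3 groups taken from the labels. The authors deposited scanner files (Feature Extraction 11.5.1.1) with the intensity of each spot after background subtraction, on a linear scale and not normalised between arrays, together with flags. The study's methods name no normalisation for the arrays and no test specific to them. The unpaired t-test of its general statistics section was run as an alternative, called the methods' t-test. Control spots and outlier spots (161 to 217 per array) were left out, no spot was saturated, and spots of 1 probe were averaged. The log2 values computed from the deposited intensity were centred on the 75th percentile of each array. Testing required that a share of 0.5 or more of a probe's spots be well above background on every array of some group of 3. Accessions were matched to RefSeq symbols, which named 27656 of 55681 probes. The array was designed on mm9, so no coordinates of probes are given.

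The comparisons used limma 3.58.1 (R 4.3.3), without trend, on all 9 arrays with 6 residual degrees of freedom, two-sided, with Benjamini-Hochberg adjustment over 26278 probes. A gene was represented by its brightest tested probe. All 10 genes are named, with at most 4 called genes of each pathway list per comparison, or the 2 largest differences where none was called, and the 3 genes most like *Igf1*, *Igf1r* and *Igfals*. *Igfbp1* and *Stat5b* were named outside this rule. The members and lists were chosen with earlier results of these data known. The code was tested on simulated data. Alternatives covered normalisation, filters, the model, blocks and leaving out each array. The number of arrays limits the precision.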

Additional observations from a re-analysis of the deposited data

How the results depend on the processing

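For STAM-NON against Normal, 4 of the 10 genes were called. That count was 2 with E1A spike-in centring, median centring, quantile normalisation, the percentile over probes detected on all arrays, a fit of only the 2 groups compared, and the replicate block. It was 0 without a filter on dim probes, with the slide row as a block and with the methods' t-test after Benjamini-Hochberg adjustment (4 at its unadjusted threshold), and 1 to 4 when 1 array was left out. For STAM-INS against Normal, 3 genes were called. That count was 5 by the methods' t-test without adjustment, 0 without a filter on dim probes, 1 with the replicate block, and 0 to 3 when 1 array was left out. For STAM-INS against STAM-NON the count was 0 in every setting, each left-out array included, except for 2 by the methods' t-test without adjustment. Deviations of samples with the same replicate number correlated between -0.29 and 0.15. With 3 arrays per group these values cannot decide whether the numbers pair the mice. The slide could not be fitted as a block for comparisons with Normal, and leaves the difference between the STAM groups as it is. With the slide row as a block, *Igf1r* in STAM-INS less Normal went from 0.12 to 0.21 and *Igfbp3* from -0.22 to -0.50. *Igfbp2* in STAM-INS less STAM-NON went from -0.097 to -0.018. Values within a slide row, chosen after seeing the data, called 2 genes in STAM-INS against Normal and 0 between the STAM groups. Over all probes the calls ranged widely: from 15 (slide row as a block) to 7534 (unadjusted t-test) beside 4220 in STAM-NON against Normal. They ranged from 572 (no filter) to 8811 beside 3647 in STAM-INS against Normal. Between the STAM groups they ranged from 1 (adjusted t-test) to 1498 beside 24.

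Some differences changed sign, none of them past the threshold in either setting. In STAM-NON less Normal, *Igf2r* (0.02) became -0.14 with median centring and -0.0076 with the slide row as a block, and ranged from -0.021 to 0.063 when 1 array was left out, negative without Normal replicate 2 or STAM-NON replicate 1 or 2. *Igfbp7* (0.01) became -0.14 with median centring, and ranged from -0.18 to 0.26 when 1 array was left out, negative without Normal replicate 1 or STAM-NON replicate 1 or 3. *Igfbp3* became -0.27 with the slide row as a block. *Igfbp5* ranged from -0.0038 (without Normal replicate 3) to 0.95. In STAM-INS less Normal, *Igf1r* became -0.047 with median centring, *Igfbp3* ranged from -0.50 to 0.10 (without STAM-INS replicate 2) and *Igfbp6* from -0.60 (without Normal replicate 3) to 1.67. In STAM-INS less STAM-NON, *Igfbp2* ranged from -0.44 to 0.20, positive when STAM-INS or STAM-NON replicate 2 was left out. The cause was not tested. The dim probes, *Igfbp6* above all, limit what can be seen.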
